A study of Schizosaccharomyces japonicus with 6 samples.

Results

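The transcriptome of wild-type (WT) *Schizosaccharomyces japonicus* in vegetative growth was described from 2 of the 6 libraries of the series. Both are RNA-seq libraries of total RNA from strain NIG5572, and they were the only members taken. The genotype of the strain is h- *ura4-D3 ade6-domK*, 2 nutritional marker alleles that the mutant strains of the series carry as well. Cells had grown at 30°C in the rich medium YES (0.5% yeast extract and 3% glucose, with adenine, histidine, leucine and uracil added), and were collected in mid log phase. All 5272 genes of the deposited table were used. Of these, 4867 are protein-coding in the RefSeq gene table, 322 are tRNA genes, 9 are tRNA pseudogenes and 15 are rRNA genes. The remaining 59 genes have no entry there, and 37 of them belong to the mitochondrial genome.

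*S. japonicus* is a fission yeast, a single-celled fungus that divides by a medial septum, and it is a relative of the model species *S. pombe*. It grows well by fermenting glucose to ethanol and does not depend on respiration. A yeast in log phase spends much of its transcription on making ribosomes, and keeps the genes for mating, meiosis and starvation low until nutrients run out. A level is given here in FPKM, read fragments scaled to the length of the gene and to the size of the library, so that long and short genes can be set side by side. Levels are listed for replicate 1 and then replicate 2. With 1 strain in 1 condition there is nothing to test, and each value stands as a description with the spread of the 2 libraries.

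The labels were first set against marker genes. Of 16 genes expected in growing cells, 11 were found under their symbol, and all 11 lay above the median of all genes. *act1*, which encodes actin, was at 370.6 and 379.8 FPKM. The tubulin genes *nda2* and *nda3* were at 248.5 and 241.8 FPKM and at 478.8 and 486.7 FPKM. *cdc2*, the cyclin-dependent kinase of the cell cycle, was at 69.0 and 68.8 FPKM, and its mitotic cyclin *cdc13* at 80.2 and 74.2 FPKM. The growth markers were thus present in both libraries. Of 28 meiosis and sporulation markers 26 were found, of which 23 had a mean below 10 FPKM. The lower quartile of all genes was 10.6 FPKM in both libraries, so less than 25% of all genes lay below 10 FPKM in either library. The master regulator of meiotic transcription *mei4* was at 3.42 and 2.69 FPKM, and *ste11*, which switches on sexual development, at 4.03 and 3.38 FPKM. The meiotic cohesin *rec8* was at 0.423 and 0.706 FPKM. The meiotic cyclin *crs1* was at 0.230 FPKM in replicate 1 and listed at 0 in replicate 2. Only 2 meiotic markers exceeded the median of all genes. These were the transcription factor *atf21* at 94.0 and 86.3 FPKM and *mei2*, the RNA-binding protein that starts meiosis in *S. pombe*, at 26.1 and 26.8 FPKM.

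*ura4*, needed to make uracil, was at 43.4 and 43.1 FPKM. *ade6*, needed to make adenine, was at 89.6 and 87.0 FPKM. Both marker genes therefore had reads. The sources used here do not say which part of either gene the allele changes, so these levels do not check the genotype.

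The levels spanned from 0 to more than 10000 FPKM, with most genes within a narrow middle range. The median gene was at 24.5 and 24.7 FPKM, the lower quartile was at 10.6 and 10.6 FPKM, and the upper quartile at 61.8 and 62.4 FPKM. By the mean of the libraries, 3151 genes lay between 10 and 100 FPKM. A further 702 lay between 100 and 1000 FPKM, 152 between 1000 and 10000 FPKM, and 11 above 10000 FPKM. At the low end, 794 genes lay between 1 and 10 FPKM, 158 were above 0 but not above 1 FPKM, and 304 were listed at 0 in both libraries. A level of 1 FPKM or more was reached in both libraries by 4760 genes, or 90.3% of the table. The sum of FPKM was 1068001 and 1047611. The depth of the libraries is unknown, since FPKM keeps no number of reads, and no counting error can be given.

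A small number of genes carried most of the summed FPKM. The share of that sum is a share per gene length, close to a share of transcript molecules, and not a share of reads. A share of 50% lay in the 47 highest genes of replicate 1 and the 50 highest of replicate 2. The 100 highest genes by mean held 64.5% and 63.7%, and the 1000 highest held 90.4% and 90.2%. The genes with a mean below 10 FPKM held 0.441% and 0.449% together.

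**Figure D1:**
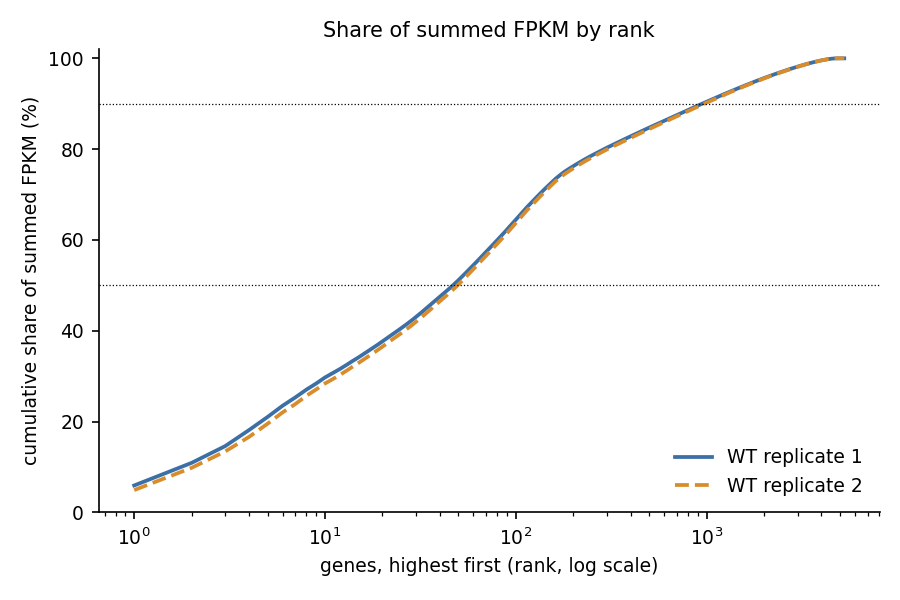
Cumulative share of summed FPKM (y axis, percent) against gene rank from the highest gene down (x axis, log scale), 1 line for each WT library. Both lines pass 50% (dotted) between rank 47 and rank 50 and 90% between rank 948 and rank 974.

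All 25 highest genes encoded proteins of the cytosolic ribosome. The highest was *rpl4101*, 1 of 2 genes for L41, at 63438 and 51541 FPKM, and its partner *rpl4102* ranked 4 at 37755 and 33561 FPKM. Between them came *rps29* at 53143 and 51390 FPKM and *rpl29* at 39437 and 37789 FPKM. *rps3002* followed at 30701 and 30328 FPKM, *rps25* at 26540 and 26257 FPKM, *rps21* at 19654 and 19332 FPKM and *rps2802* at 18256 and 18975 FPKM. L41, S29, L29, S30, S28 and S21 are among the shortest ribosomal proteins, and FPKM divides by length, so their rank depends on the lengths the authors used, which are not in the table. *rps27b*, *rpl39* and *rps3001* made up the rest of the 11 genes above 10000 FPKM, with means from 10331 to 14527 FPKM. The other 14 of the 25 highest genes had means from 5617 FPKM (*rps26b*) to 9795 FPKM (*rpl22*).

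The 140 genes of the cytosolic ribosome held 67.6% and 66.9% of the summed FPKM (67.2% ± 0.50, SD, n = 2), although they are 2.66% of the genes. The ribosome is built from a small and a large subunit, each with its own set of proteins. None of the 140 genes was low. The lowest was *rps14a* at 287 and 285 FPKM, more than 10 times the median of all genes, and the median of the group was 2735 and 2697 FPKM. The 56 genes of the small subunit held 28.5% and 28.9%, and the 79 genes of the large subunit with its stalk held 37.5% and 36.4%. The 5 *ubi* genes, which in part encode ubiquitin joined to a ribosomal protein, held the remaining 1.54% and 1.57%. In all, 126 of the 163 genes above 1000 FPKM were of this class.

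Many ribosomal proteins have a pair of genes, and the members of a pair were often far from equal. Of 49 such pairs, matched by symbol, 17 differed by more than 2-fold in both libraries, while 24 stayed within 1.5-fold. The same member was the higher in both libraries in all 49 pairs. *rps14b* was at 4595 and 4601 FPKM, 16.0 and 16.1 times *rps14a*. *rpl34a* was at 5403 and 5301 FPKM against 390 and 388 FPKM for *rpl34b*, 13.8 and 13.7 times as high. *rpl1a* was 6.31 and 6.21 times as high as *rpl1b*, and *rpl5b* was 4.19 and 4.12 times as high as *rpl5a*. At the other end, *rpp1a* and *rpp1b*, for stalk proteins, differed by less than 1.01-fold in both libraries, and *rps15a* was 1.00 and 1.01 times *rps15b*. The members of a pair can be almost identical in sequence. How reads that fit both members were counted is not given in the sources used here, so the ratios are uncertain. S23 has 3 genes by symbol, and of these *rps23a* and *rps23c* were listed with exactly the same values, 1954 and 1937 FPKM, while *rps23b* was at 3713 and 3662 FPKM. No other protein-coding genes with a mean of 1 FPKM or more had identical values in both libraries. Whether the equal values come from shared reads was not tested.

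Translation factors came next among the named classes. The 58 genes held 2.75% and 2.82% of the summed FPKM, with a median of 224 FPKM in both libraries. *tma19*, for the translationally controlled tumor protein, was at 3841 and 3926 FPKM. *tef101* and *tef103*, for the elongation factor that brings aminoacyl-tRNA to the ribosome, were at 3319 and 3310 FPKM and at 2425 and 2402 FPKM. The lowest was *pth4*, a mitochondrial release factor, at 2.76 and 4.34 FPKM. Ribosome biogenesis, with 116 genes, held 1.35% and 1.38%. It was led by *nop10* at 1614 and 1648 FPKM, by fibrillarin, *fib1*, at 850 and 840 FPKM, and by *snu13* at 709 and 719 FPKM. All 3 act in small nucleolar particles that modify or process rRNA. The lowest gene that the symbols put in this class, *rrp1*, was at 7.23 and 7.73 FPKM, but the table describes it as a predicted DNA helicase, so it may not belong there. The 36 genes of aminoacyl-tRNA synthetases and their cofactors held 0.270% and 0.274%, from *asc1* at 220 and 214 FPKM down to the mitochondrial *dar2* at 4.01 and 3.06 FPKM. *cpc2*, the RACK1 protein that sits on the small subunit, was at 3226 and 3225 FPKM.

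**Figure D2:**
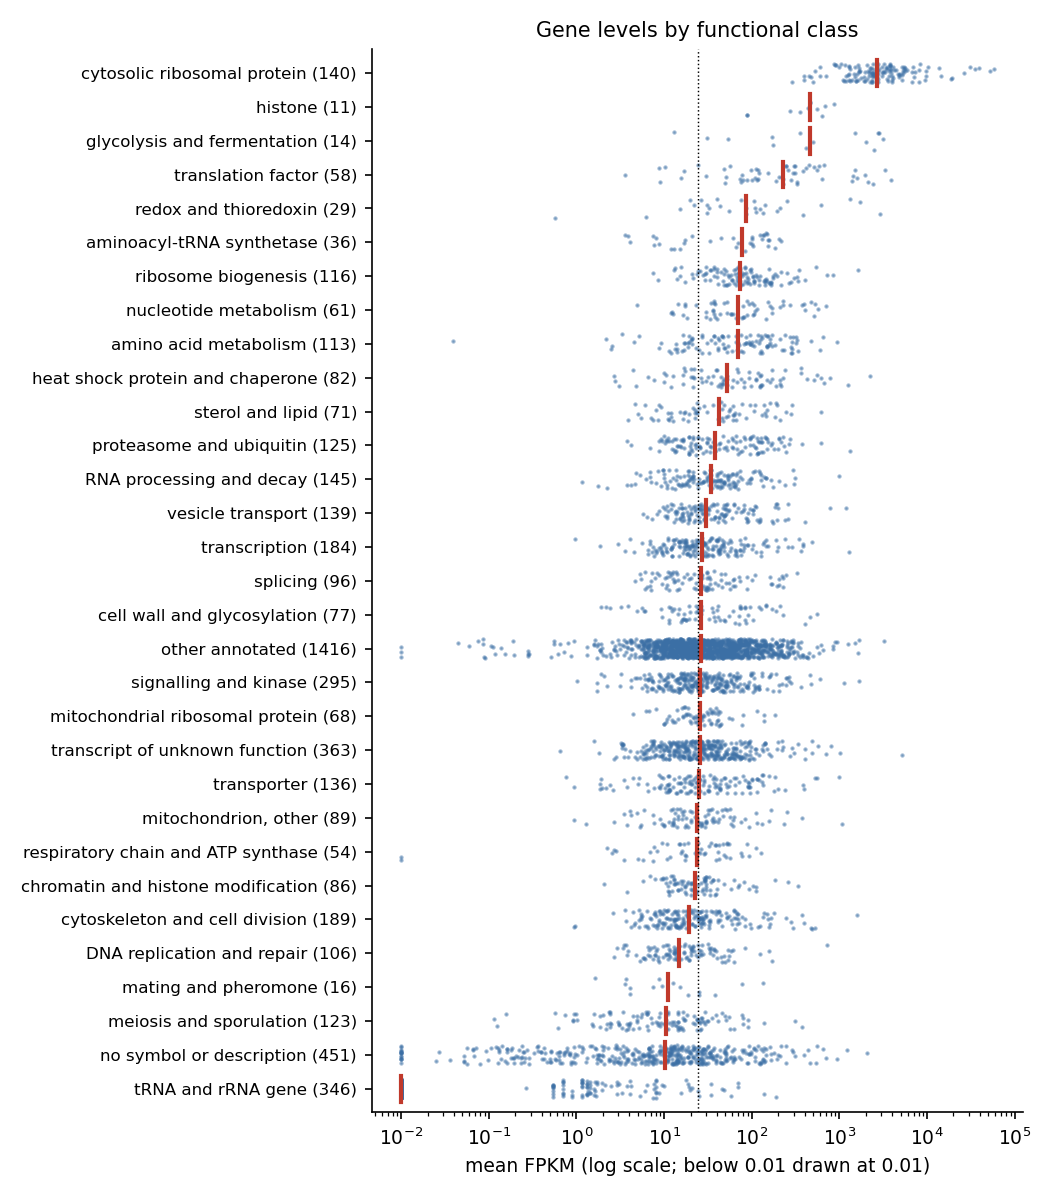
Mean FPKM of the 2 WT libraries for every gene (points, log scale), by functional class with the number of genes in parentheses; red bars are class medians and the dotted line is the median of all genes. Genes of the cytosolic ribosome start at 286 FPKM, histone and glycolysis genes come next by median, and the 451 genes with neither symbol nor description have more points below 1 FPKM (95 genes in both libraries) than any class apart from tRNA and rRNA genes. The genes of the mitochondrial genome are not drawn.

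Genes of glycolysis and alcoholic fermentation were high but uneven. This pathway splits glucose to pyruvate and then turns pyruvate into ethanol, and it is the main source of ATP when a yeast does not respire. The 14 annotated genes held 1.53% and 1.57% of the summed FPKM (1.55% ± 0.028, SD, n = 2). Triosephosphate isomerase *tpi1* was at 3092 and 3130 FPKM, phosphoglycerate mutase *gpm1* at 2821 and 2778 FPKM, and the aldolase gene *SJAG_01310* at 2770 and 2804 FPKM. *pgk1* (phosphoglycerate kinase), *SJAG_00461* (enolase) and *pyk1* (pyruvate kinase) had means of 2470, 1989 and 1522 FPKM. These 6 genes were at least 3 times as high as any other of the class. The opening steps of the pathway, before aldolase, were lower, with phosphoglucose isomerase *pgi1* at 499 and 500 FPKM, hexokinase *hxk2* at 423 and 413 FPKM and phosphofructokinase *pfk1* at 169 and 173 FPKM.

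The steps annotated as glyceraldehyde-3-phosphate dehydrogenase and pyruvate decarboxylase stood apart from their neighbours in the pathway. *SJAG_00027*, the only gene the table describes as that dehydrogenase, was at 170 and 174 FPKM, while the genes for the steps just before and after it were above 1000 FPKM. *SJAG_02135*, a second dehydrogenase gene by the supplementary annotation of the study but without a description in the table, was at 137 and 141 FPKM. *pdc202*, the only gene described as pyruvate decarboxylase, was at 31.0 and 30.5 FPKM. The alcohol dehydrogenase *adh1* (*SJAG_03370*) was at 351 and 361 FPKM, and *adh8* was the lowest of the class at 12.5 and 13.2 FPKM. Other genes of these enzymes that lack a description would not have been counted. The pentose phosphate pathway, which branches off glycolysis and yields NADPH, had *tal1* at 574 and 587 FPKM and *gnd1* at 547 and 549 FPKM, with *rki1* lowest at 27.5 and 31.7 FPKM.

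Nuclear genes of the respiratory chain and the ATP synthase held 0.155% and 0.161% of the summed FPKM (0.158% ± 0.0041, SD, n = 2). The 54 genes include assembly factors such as *atp11* and *cox17*, so 54 is not a count of subunits. They are about 4 times as many as the genes of glycolysis, and their summed share was about 10 times smaller. Their median, 23.6 and 22.3 FPKM, was near that of all genes. The ATP synthase was the higher part, with *atp15* at 113 and 139 FPKM, *atp17* at 117 and 106 FPKM and the catalytic subunit *atp2* at 93.0 and 94.5 FPKM. The cytochrome bc1 complex, which passes electrons to cytochrome c, ranged from *rip1* at 73.2 and 77.4 FPKM to *qcr7* at 6.46 and 3.65 FPKM and *qcr9* at 0.794 and 4.33 FPKM. Succinate dehydrogenase, shared by the chain and the citric acid cycle, was low in *sdh1*, *sdh2* and *sdh3*. *sdh1* was at 10.7 and 10.6 FPKM, *sdh2* at 7.79 and 5.83 FPKM and *sdh3* at 1.39 and 3.09 FPKM. *emi5*, described as a predicted subunit, was at 13.8 and 15.6 FPKM. Of other genes with an *sdh* symbol, *sdh7* was at 42.7 and 42.4 FPKM and *sdh8* at 1.56 and 4.02 FPKM. *qcr10* and *sdh6* were listed at 0 in both libraries. Neither has an entry in the RefSeq gene table. Of the 22 such genes outside the mitochondrial genome, 5 were listed at 0 in both libraries. Elsewhere in the citric acid cycle, *kgd1*, of the 2-oxoglutarate dehydrogenase complex, was at 17.2 and 16.4 FPKM and fumarase, *fum1*, at 75.5 FPKM on average.

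Of the 37 genes of the mitochondrial genome, 35 were listed at 0 in both libraries, among them *cox1*, *cox2*, *cox3*, *cob1*, *atp6*, *atp8* and *atp9*. The other two stayed below 0.13 FPKM. Since yeasts are known to transcribe these genes, they are given here only as listed at 0, and the values say nothing of their transcription. The nuclear genes of the mitochondrial ribosome were measured, with *mrpl28* at 184 and 186 FPKM, *mrp11* at 137 and 141 FPKM and *mrpl20* lowest at 4.71 and 4.16 FPKM. Among other mitochondrial proteins, the subunit *tom7* of the import channel was at 1173 and 967 FPKM, *tom20* at 366 and 374 FPKM and the ADP/ATP carrier *anc1* at 253 and 255 FPKM.

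Histone genes were all high. The 11 genes held 0.457% and 0.470% of the summed FPKM, and the lowest were the variants, H2A.Z (*pht1*) at 88.0 and 89.4 FPKM and the centromeric H3 (*cnp1*) at 89.4 and 87.0 FPKM. The 3 genes for H4 summed to 2091 and 2131 FPKM, and the 3 genes for H3 to 1262 and 1286 FPKM. The 2 genes for H2A summed to 718 and 694 FPKM, and the single H2B gene, *htb1*, was at 637 and 639 FPKM. Each H3 gene has an H4 gene as its direct neighbour, and H4 was the higher in every such pair. *hhf1* was 1.88 and 1.87 times *hht1*, *hhf2* was 1.95 and 1.99 times *hht2*, and *hhf3* was 1.20 and 1.21 times *hht3*. The H3 genes are close copies of each other, as are the H4 genes, and the split of reads among them is uncertain.

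Subunits of some stable complexes lay close together, and those of others did not. Of 12 complexes, 5 had means within a 3-fold range and 7 did not. The ranges of FPKM that follow are over both libraries. The chaperonin CCT, a ring that folds actin and tubulin, had its 8 genes between 95.7 and 171 FPKM, and their means had a 1.73-fold range. The 14 genes of the 20S proteasome, the core that degrades proteins, lay between 93.0 and 235 FPKM. The 19 genes described as subunits of the 19S regulatory particle lay between 48.0 and 153 FPKM, and their means had a 2.99-fold range. *rpn15* was left out of these because the table describes it as the mRNA export protein Dss1, although that protein is also a 19S subunit. It was at 653 and 573 FPKM, and with it the range was 12.1-fold. The 11 genes of the initiation factor eIF3 lay between 107 and 447 FPKM. The means had a 3.68-fold range in 7 genes of RNA polymerase II. Subunits shared with RNA polymerases I and III were left out of these. Among them, *rpb10* was at 1251 and 1310 FPKM, *rpc10* at 486 and 477 FPKM and *rpb6* at 399 and 372 FPKM. Each was above the 7 listed, so the range with them was wider. The means had a 4.36-fold range in the Arp2/3 complex, which branches actin filaments, and an 8.32-fold range in the exosome, which degrades RNA. The complexes of DNA replication and chromosome structure lay lower, near or under the median of all genes. The 6 MCM genes, which form the replicative helicase, were between 19.2 and 39.2 FPKM, and the 5 condensin genes between 11.7 and 21.2 FPKM. The 6 genes of the origin recognition complex were between 2.68 FPKM (*orc3*) and 23.8 FPKM (*orc6*), an 8.48-fold range of means. The 4 mitotic cohesin genes had a 3.54-fold range. The V-type ATPase, the proton pump of the vacuole, had a 22.6-fold range. Its *vma3*, for the proteolipid ring, was at 971 and 1007 FPKM, *vma10* at 538 and 562 FPKM, and *vph1* at 43.7 FPKM in both libraries.

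**Figure D3:**
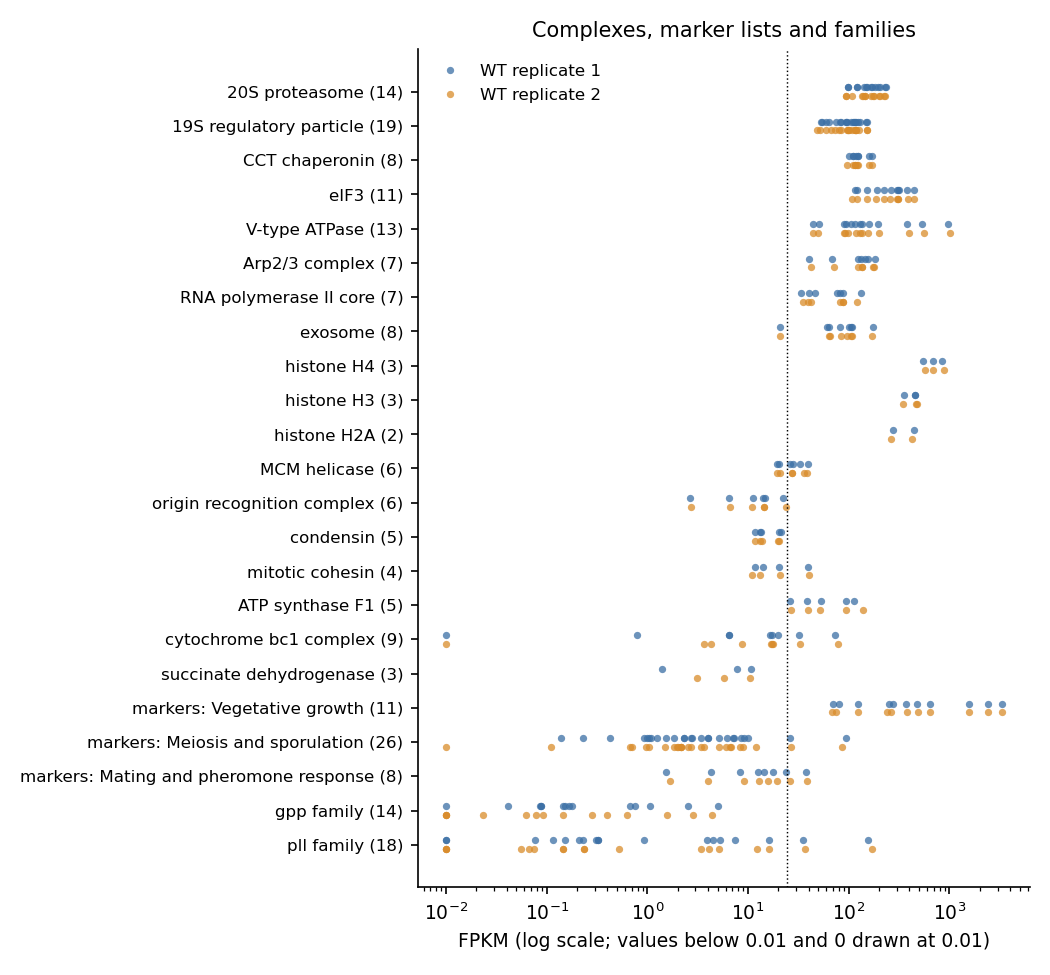
FPKM in each WT library (x axis, log scale) of the members of complexes, marker lists and gene families, with the number found in parentheses; the dotted line is the median of all genes. CCT and 20S proteasome genes lie between 93.0 and 235 FPKM, growth markers all lie right of the line, and gpp and pll genes lie mostly below 1 FPKM.

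In cohesin, which holds sister chromatids together, the mitotic subunit was the higher in both pairs of mitotic and meiotic counterparts compared. The cohesin kleisin *rad21* was at 39.2 and 40.7 FPKM, which was 92.7 and 57.7 times the level of its meiotic counterpart *rec8*. *psc3* was at 14.2 and 13.1 FPKM, and its meiotic counterpart *rec11* at 3.99 and 3.64 FPKM. Among cell cycle regulators the spread was wide, with the kinase *wee1*, which delays mitosis, at 1.99 and 1.83 FPKM and its opponent *cdc25* at 13.5 FPKM on average. The cyclins *cig1* and *cig2* were at 20.6 and 20.6 FPKM and at 14.8 and 14.4 FPKM, and *puc1* at 2.21 and 2.17 FPKM. The libraries come from populations of cells, so a gene used in a short part of the cycle and a gene used little throughout cannot be told apart.

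The meiosis and sporulation class had a median of 10.1 and 10.7 FPKM over 123 genes. Of these, 6 were below 1 FPKM in both libraries. Over all genes that share was 8.27%, and over protein-coding genes 2.75%, so 6 of 123 falls between them. The class also held genes at higher levels. *spo20*, a lipid transfer protein of the Sec14 family, was at 369 and 379 FPKM, *spo12* at 302 and 319 FPKM, and *mug143*, a sequence orphan, at 139.2 and 139.5 FPKM. The 16 genes of mating and pheromone response had a median of 10.8 and 11.3 FPKM. *ste13*, an RNA helicase, was at 134 and 138 FPKM, the protease *ste24* at 78.3 and 76.9 FPKM and the MAP kinase *spk1* at 37.4 and 38.8 FPKM. In *S. pombe*, h- cells make M-factor and carry the receptor for P-factor, and h+ cells do the reverse. In the h- strain studied here, the P-factor gene *map2* was the lowest of the class at 1.53 and 1.68 FPKM, and the P-factor receptor *mam2* was at 14.4 and 15.9 FPKM. *map3*, the M-factor receptor, was at 23.6 and 26.1 FPKM. Receptors of both kinds therefore had reads, and the 3 M-factor genes and *mam3* were not found under their symbols.

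Genes that respond to nutrients differed widely among themselves. *nmt1*, a thiamine synthesis gene shut off by thiamine in *S. pombe*, was at 0.991 and 0.588 FPKM, while *thi2* and *thi4* of the same pathway were at 20.7 and 21.9 FPKM and at 25.1 and 26.6 FPKM. The neighbouring genes *urg1*, *urg3* and *urg2*, known in *S. pombe* for induction by uracil, were at 578 and 576 FPKM, 210 and 213 FPKM, and 504 and 510 FPKM. The zinc transporter *zrt1* was at 528 FPKM in both libraries. The iron permease *fip1* and its neighbour, the ferroxidase *fio1*, were at 136 and 136 FPKM and at 189 and 186 FPKM. Of 4 hexose transporter genes, *ght2* was at 386.8 and 392.1 FPKM, and the others were between 4.93 and 20.8 FPKM in both libraries.

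The lowest gene with an *S. pombe* ortholog was *put1*, for proline dehydrogenase, at 0.0397 and 0.0377 FPKM. *put2*, for the next enzyme of proline breakdown, was at 291 and 297 FPKM. The pathway that degrades proline thus had its first step near 0 and its next step above 169 FPKM, the level that 90% of all genes stayed below in both libraries. The amino acid class as a whole, with 113 genes, held 1.21% and 1.23% of the summed FPKM. It was led by genes of branched-chain amino acid synthesis, *ilv5* at 944 and 953 FPKM and *ilv6* at 603 and 599 FPKM, and by glutamine synthetase *gln1* at 644 and 651 FPKM.

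Of 8 markers of nitrogen starvation and stress, 7 were found, of which 4 lay above the median of all genes and 3 below it. *hsp9*, a heat shock protein, was at 592 and 633 FPKM, the glycerol-3-phosphate dehydrogenase *gpd1* at 231 and 234 FPKM, and the protease *isp6*, induced by nitrogen starvation in *S. pombe*, at 146.4 and 145.5 FPKM. *tps1*, for trehalose synthesis, was at 42.7 and 42.0 FPKM. Below the median were *isp7* at 23.7 and 21.1 FPKM, the catalase *ctt1* at 14.9 and 15.2 FPKM and *fnx1* at 14.5 and 13.8 FPKM. In the redox class, the peroxidases *tpx1* and *pmp20* were at 2874 and 2880 FPKM and at 1715 and 1761 FPKM, and thioredoxin *trx1* at 1319 and 1310 FPKM. Among 82 chaperones, the prolyl isomerases *fkh1* and *ppi1* led at 2201 and 2233 FPKM and at 1230 and 1257 FPKM.

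The other classes were headed by genes of basic cell functions. The actin-severing cofilin *adf1* was at 1567 and 1634 FPKM, the Ran GTPase *spi1* of nuclear transport at 1683 and 1698 FPKM and its binding protein *sbp1* at 1140 and 1107 FPKM. The ubiquitin-conjugating enzyme *ubc4* was at 1301 and 1313 FPKM, the translocon subunit *sss1* at 1155 and 1233 FPKM, and *rpb10*, a subunit of all nuclear RNA polymerases, at 1251 and 1310 FPKM. In chromatin, the chaperone *nap1* was at 341 and 339 FPKM and the heterochromatin protein *swi6* at 182.2 and 181.5 FPKM. The 14-3-3 protein *rad25* was at 731 and 721 FPKM, the IMP dehydrogenase *gua1* at 705 and 708 FPKM, the cell wall protein *ecm33* at 548 and 553 FPKM and the membrane proteolipid *pmp3* at 624 and 609 FPKM.

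The lowest genes of several classes lay between 0.862 and 2.24 FPKM. The dynein heavy chain *dhc1* was at 0.898 and 0.995 FPKM, the transcriptional regulator *spp41* at 1.06 and 0.862 FPKM and *pat1*, the kinase that holds back meiosis in *S. pombe*, at 1.13 and 0.880 FPKM. The RNA-binding protein gene *mpf2* was at 1.17 and 1.13 FPKM, the cell wall synthase *mok13* at 1.86 and 1.90 FPKM and the chromatin remodeller subunit *sol1* at 1.89 and 2.24 FPKM.

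Genes for which the deposited annotation gives no specific function were spread over the whole range. The 363 genes described only by a family or as conserved or orphan had a median of 25.2 and 25.3 FPKM, near that of all genes. *SJAG_04875*, annotated as a sequence orphan, was the highest gene outside the ribosomal class at 5149 and 5067 FPKM. A further 451 genes had neither a symbol nor a description and were not RNA genes of the nucleus or genes of the mitochondrial genome. Their median was 10.1 and 9.90 FPKM. The highest of them were *SJAG_03373* at 2091 and 2068 FPKM, *SJAG_04842* at 1215 and 1231 FPKM and *SJAG_01874* at 936 and 922 FPKM. At the other end, 95 of the 451 were below 1 FPKM in both libraries. An empty description does not mean that the function is unknown. *SJAG_02135*, 1 of the 451, is a dehydrogenase gene by the supplementary annotation of the study. A description is given for 4201 genes, the same number as have an *S. pombe* ortholog entry. The 451 therefore overlap the genes without an entry described next and are not a separate result.

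An *S. pombe* ortholog was entered for 4201 genes and left empty for 1071. Each *S. pombe* identifier is used only once, so that the second copy of a gene pair can be without an entry, as in *rps27b*, whose partner *rps27a* has one. The cell can also be empty for both members of a pair, as for *rpl4101* and *rpl4102* or *tef101* and *tef103*. An empty cell is therefore not proof that *S. pombe* lacks the gene. Nearly all genes with an entry were detected. Of the 4201, 99.4% reached 1 FPKM in both libraries, none was listed at 0 in both, and the median was 29.4 and 29.1 FPKM. Of the 1071 without, 419 (39.1%) were below 1 FPKM in both libraries, and the median was 3.17 and 3.37 FPKM. On the scale of log2(FPKM + 1) the medians were 2.87 and 2.78 apart (2.82 ± 0.059, SD, n = 2). Many of the genes without an entry are not protein-coding. Among protein-coding genes alone, the 666 without an entry had a median of 12.4 and 12.5 FPKM, and the difference on the log2 scale was 1.18 and 1.16.

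**Figure D4:**
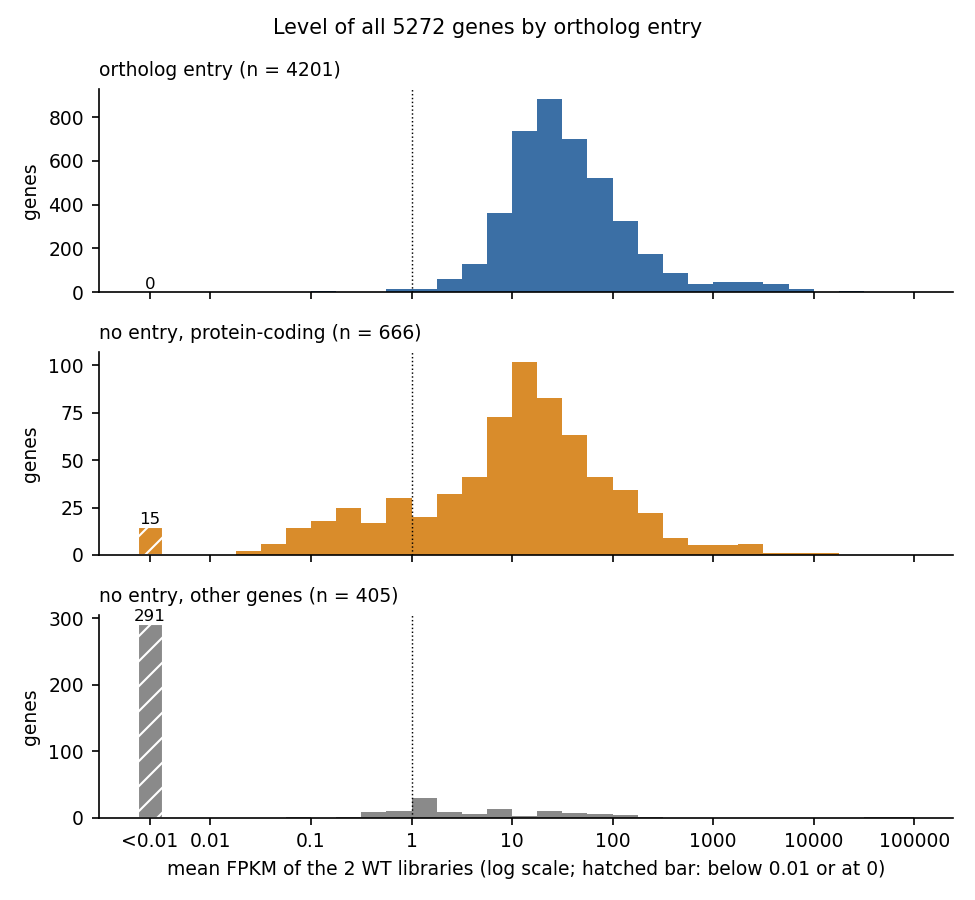
Number of genes (y axis) by mean FPKM of the 2 WT libraries (x axis, log scale), for genes with an *S. pombe* ortholog entry, protein-coding genes without and other genes without; the hatched bars are genes at 0 or below 0.01 FPKM and the dotted line is 1 FPKM. Genes with an entry form 1 peak with few genes below 1 FPKM, protein-coding genes without an entry have a second group below 1 FPKM, and 291 of the 405 other genes are in the hatched bar.

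The genes without an entry held 16.5% and 15.4% of the summed FPKM. Ribosomal protein genes, 15 in number, made up 79.4% and 77.1% of that share, and without them it was 3.39% and 3.52%. Of the 15 highest genes without an entry 12 were of the ribosome, the others being *tef101*, *tef103* and *SJAG_03373*. The 222 protein-coding genes that had a symbol but no entry had a median of 21.0 and 20.4 FPKM, and the 444 with no symbol had a median of 10.05 and 9.89 FPKM. The latter include 92 genes below 1 FPKM in both libraries.

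Below 1 FPKM in both libraries were 436 genes, of which 96.1% had no ortholog entry, against 20.3% of all genes. The group was made up of 252 tRNA genes, 8 tRNA pseudogenes, 37 mitochondrial genes, 134 protein-coding genes and 5 others. All 4201 ortholog entries belong to protein-coding genes, so the other kinds of gene raise the 96.1%. Among protein-coding genes, 87.3% of the 134 low ones had no entry, against 666 of all 4867. Of the 322 tRNA genes, 242 were listed at 0 in both libraries. tRNAs are short and heavily modified and are poorly captured in libraries of this kind, so these values say little of their transcription. All 304 genes listed at 0 in both libraries lacked an ortholog entry, and 14 of them were protein-coding.

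Only 17 genes with an *S. pombe* ortholog were below 1 FPKM in both libraries. Several act in meiosis, namely the chromosome axis gene *hop1* at 0.559 and 0.685 FPKM, *rec8*, the shugoshin *sgo1* at 0.754 and 0.976 FPKM, and the cyclins *rem1* at 0.140 and 0.111 FPKM and *crs1*. *mug27*, a kinase of sporulation in *S. pombe*, was at 0.135 and 0.177 FPKM, and dynein *dhc1*, which moves the nucleus in meiotic prophase of that species, was also among them. The remaining ones were *put1*, *nmt1*, the DNA repair endonuclease *uve1*, the cation pump *cta3*, *rds1*, the mitochondrial ATPase *afg1*, and the genes *SJAG_00238*, *SJAG_02962*, *SJAG_03079* and *SJAG_03825*. Each had a level between 0.0377 and 1 FPKM in both libraries, *crs1* in replicate 2 aside.

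A pair of gene families of *S. japonicus* had most members below 1 FPKM in both libraries, against 2.75% of all protein-coding genes. Among protein-coding genes without an ortholog entry that share was 17.6%. The study's annotation names the *gpp* genes for a motif around GPPY and the *pll* genes for a PLLLP motif, and neither family has an ortholog entry. Of 14 *gpp* genes 11 were below 1 FPKM in both libraries, and the highest, *gpp9*, was at 5.03 and 4.39 FPKM. *gpp1* was listed at 0 in both libraries. Of 18 *pll* genes 11 were below 1 FPKM in both libraries, *pll4* and *pll11* being listed at 0. The *pll* family also had members well above the rest, *pll16* at 154 and 169 FPKM, *pll17* at 34.9 and 36.7 FPKM and *pll14* at 16.0 and 16.1 FPKM. How reads that fit several members of a family were counted is not given in the sources used here.

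Many low protein-coding genes lay side by side. Of the 134 that were below 1 FPKM in both libraries (2.75% of protein-coding genes), 76 (56.7%) formed 24 runs of 2 or more neighbours in the gene order of the RefSeq table, with RNA genes skipped. The longest run held 8 genes from *SJAG_00019* to *SJAG_00012*, whose means were from 0 to 0.507 FPKM. By the study's annotation it includes an RTA-like protein, a predicted amino acid or polyamine transporter, a zinc finger protein and a RecQ-type helicase. The next run was 7 genes of the *gpp* and *pll* families, *gpp2*, *gpp14*, *pll3*, *gpp1*, *pll4*, *pll1* and *pll5*, with means from 0 to 0.649 FPKM. There followed 2 runs of 6 genes, from *SJAG_01096* to *SJAG_02126* and from *SJAG_06576* to *gpp6*. They hold predicted transporters, acyltransferases and an alpha-glucosidase.

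All 4 of these runs lay within 33 protein-coding genes of an end of a large assembled sequence. The 3 largest pieces of the assembly hold 4849 protein-coding genes. Of the 120 genes within 20 protein-coding genes of an end of these pieces, 39 (32.5%) were below 1 FPKM in both libraries, against 82 of the other 4729 (1.73%). The median level was 9.61 FPKM near the ends and 27.3 FPKM elsewhere. An ortholog entry was missing for 57.5% of the genes near the ends and for 12.3% of the others. On 9 small pieces, 13 of 18 protein-coding genes were below 1 FPKM. An end of an assembled piece need not be the end of a chromosome.

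The 2 libraries gave close values for nearly all protein-coding genes. Where the mean reached 1 FPKM or more, 42 of 4810 (0.873%) were more than 2-fold apart after 1 FPKM was added to both values. Of these 42, 35 were listed at 0 in 1 library, so their fold rests on the 1 FPKM added. By kind, 34 were tRNA genes, 1 was a tRNA pseudogene and 4 were rRNA genes, which leaves 3 protein-coding genes. They were *SJAG_06002* at 17.6 and 6.28 FPKM, *SJAG_00715* at 20.1 and 8.46 FPKM and *qcr9*. The spread was larger in low genes. The median gene with a mean above 1000 FPKM differed by 1.16% between the libraries, and that between 10 and 100 FPKM by 3.96%. The median gene up to 1 FPKM differed by 37.4%. The 71 genes at 0 in 1 library only were left out of these medians, so the spread of low genes is understated. Across all genes the libraries had a Spearman correlation of 0.996, a description across genes of a single strain.

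All 15 rRNA genes were higher in replicate 2, and their sum was 581 FPKM in replicate 1 and 915 FPKM in replicate 2. Together they held only 0.0544% and 0.0874% of the summed FPKM, and these values say little of rRNA levels in the cell. The largest gaps were in *SJAG_16161* at 6.94 and 31.1 FPKM, *SJAG_16137* at 63.1 and 212 FPKM and *SJAG_16170* at 33.8 and 82.0 FPKM. A tRNA pseudogene, *SJAG_16126*, was listed at 0 in replicate 1 and was at 30.9 FPKM in replicate 2. At the top of the range *rpl4101* and *rpl4102* were higher in replicate 1, and together they made up 78.9% of the difference between the 2 sums of FPKM. What differed between the preparations was not tested. The labels number the libraries as replicates, and the study describes them as independent experiments.

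**Figure D5:**
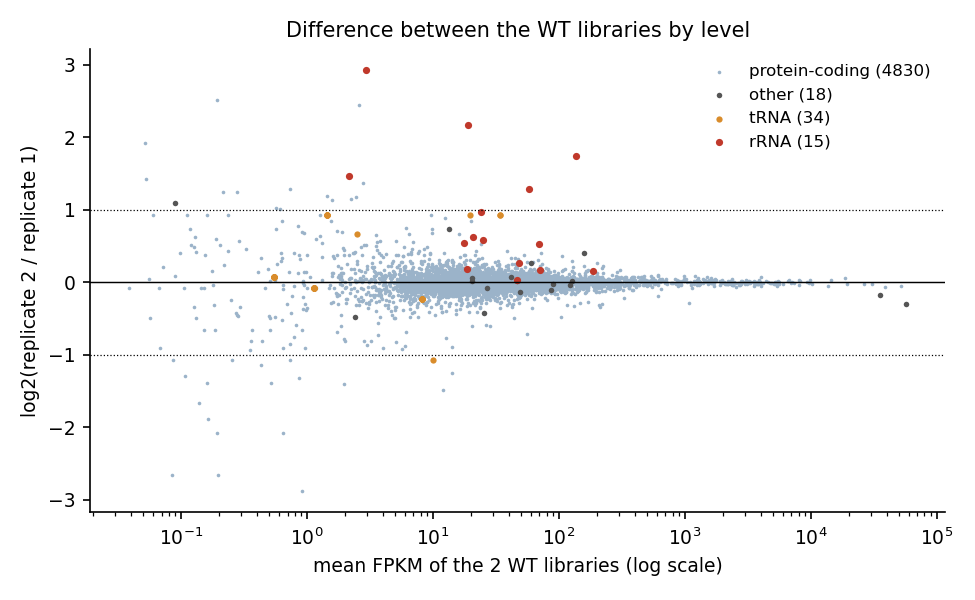
Log2 ratio of replicate 2 to replicate 1 (y axis) against the mean FPKM of both (x axis, log scale) for genes above 0 in both WT libraries, by kind of gene with the number of genes in parentheses; dotted lines mark 2-fold. Protein-coding genes narrow toward 0 as the level rises, all 15 rRNA genes lie above 0, and tRNA genes fall on a few repeated values.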

How the data were processed

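The authors sequenced strand-specific libraries of total RNA and deposited 1 table of 5272 genes. Per the labels, the processing notes name FastQC 0.11.6, STAR 2.5.3a and StringTie 1.3.1c. Build, annotation and the handling of multi-mapping reads are not given in the sources used here. The deposited values are taken as FPKM. That unit is not written in the table and was judged from the values. FPKM keeps no depth, so no counting error was given. The columns of the mutants and the deposited ratio columns, in which the authors divided mutant by WT values, were not used here (8 columns).

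Only both WT libraries entered, and no test was run. Genes were put in 32 classes by symbol and description words. The kind of gene and gene order were looked up by locus tag in RefSeq (assembly SJ5), which held 5213 of the genes. Sequences are not shown. Python 3.11.15 was used, with pandas 2.3.3, numpy 2.4.6, scipy 1.17.1 for correlations and matplotlib 3.10.9 for plots. The summaries were tested on simulated data.

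The rule named the 25 highest genes, of each class the 3 highest and the lowest, the 15 highest without an ortholog entry, the markers, the 5 genes furthest apart between libraries among those with a mean of at least 10 FPKM, *ura4*, *ade6* and the 3 longest runs of low genes. Not all genes of the classes were printed. Members and lists were chosen with earlier results of these data known, class words were adjusted after the annotation was read, and the gene pairs, families, complexes and pathway genes were chosen after values were seen. Alternatives were other thresholds, pseudocounts and gene sets, sums rescaled to 1000000, and leaving out each library.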

Additional observations from a re-analysis of the deposited data

How the results depend on the processing

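No paired analysis was possible because there is a single strain and no result comes from a test. The counts of genes at 1 FPKM or more and at 0 stayed within 1.5 times under all other thresholds and with either library left out, but 14 of the genes at 0 were protein-coding. The share of the 100 highest genes was 62.2% without the highest gene, 61.2% among protein-coding genes, which leave out *rpl4101* and *rpl4102*, and 52.2% without the 10 highest genes, an alternative chosen after seeing the data. The ribosomal protein share was 54.8% by description words alone, 65.3% without the highest gene and 53.8% without the 10 highest. Without the highest gene the glycolytic share was 1.64% and the respiratory share 0.167%, and by description words alone the latter was 0.114%. The median difference by ortholog entry on the log2 scale was 3.12 with a pseudocount of 0.1 FPKM and 2.05 with 5 FPKM. It was 0.83 where the mean was 1 FPKM or more, 1.17 among protein-coding genes, and 1.46 among these when genes with a symbol but no entry were left out. Of genes below the threshold, the percentage without an entry was 95.0% to 95.7% with 1 library left out, 95.2% on rescaled sums, 98.7% below 0.5 FPKM, 75.0% below 5 FPKM and 87.3% among protein-coding genes. Genes over 2-fold apart between libraries numbered 21 with a pseudocount of 5 FPKM, 14 where the mean was 5 FPKM or more, and 3 among protein-coding genes. The alternatives restricted to protein-coding genes for the counts at 0 and over 2-fold apart, and those without genes that have a symbol but no entry, were added after seeing the data. Depth is unknown, and levels below 1 FPKM, where the libraries differed most, rank genes poorly.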

Other observations

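The values of the tRNA genes took few distinct levels. In replicate 1, 53 of the 322 tRNA genes were above 0 and took 19 distinct values, the most frequent of which, 0.527 FPKM, was shared by 10 genes. In replicate 2, 61 were above 0 with 20 distinct values, and 0.556 FPKM was shared by 9 genes.

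Neighbouring protein-coding genes on the 3 largest assembled pieces had little resemblance in level over all pairs, the low runs included. Over 4846 neighbour pairs the Spearman correlation of the mean FPKM was 0.056. This is a description across genes, which share libraries and are not independent.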
